A study of Mus musculus with 8 samples.

Results

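H3K36me3, histone H3 with 3 methyl groups on lysine 36, marks transcribed genes. Most of the H3K36me3 peaks of mouse embryonic stem cells lay inside genes, and the regions described here are the ones that did not and that were gone after knockdown of Setd2. Of the 30634 peaks called in control cells, 30499 lay on chromosomes 1 to 19, and 4142 of these had their midpoint in no RefSeq gene of any biotype (GRCm38.p6, the mm10 build). The 3283 intergenic peaks that shared no base pair with a knockdown peak are called lost, and the other 859 kept. The members were thus chosen by the positions of the peaks measured in both conditions, so the loss itself is a description and is not tested. A lost peak is one that was not called again, which does not mean that no signal was left.

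The cells were feeder-free mouse embryonic stem cells with a doxycycline-inducible knockdown of Setd2, grown as spheres in 2i medium with LIF. Control cells had no doxycycline (Dox -), and knockdown cells had 1 µg/ml for 4 days (Dox +). ChIP with an H3K36me3 antibody and input DNA were each sequenced in 2 replicates per condition, 8 libraries in all. The authors merged the replicates before calling peaks, so there is 1 peak list per condition and no spread between replicates, and doxycycline and the knockdown cannot be told apart. Whether the line is 1 clone, and whether replicates were separate cultures, the labels do not say. The merged ChIP libraries kept 36244210 tags in control and 29416169 in knockdown after duplicates were removed, and the shallower knockdown library limits what could be called there. Intervals in parentheses are exact Clopper-Pearson 95% intervals of a share and cover counting error only. Of 10 embryonic stem cell marker genes, 9 held a control peak, Dppa5a being the exception. None of 6 primitive endoderm and none of 6 fibroblast markers held one, while of 6 trophoblast markers Hand1, Tfap2c and Eomes did.

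Setd2 is the main enzyme that trimethylates this lysine. It travels with elongating RNA polymerase II, so that the mark builds up over the body of a transcribed gene, is low at its promoter and is high towards its 3′ end. Polymerase commonly runs on beyond the site where the transcript is cleaved, and many transcripts are missing from gene annotation. Sequence outside annotated genes is therefore not the same as sequence that is never transcribed.

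The microRNA genes under lost peaks give the clearest named sequences, because RefSeq annotates only their short hairpins. A long primary transcript around a hairpin can thus count as intergenic. Of the 919 autosomal hairpins in the RefSeq sequence table, 300 lay wholly under a control peak of some kind, 38 of them under a lost intergenic peak and 1 under a kept one. The 38 hairpins sat under 17 peaks. The sequence table lacks some of the 1136 microRNA genes annotated on these chromosomes. Mir150, Mir544 and Mir666 also lay under lost peaks but are not among the 38. The mature sequences below are from RefSeq (GRCm38.p6), written 5′ to 3′ with the seed, bases 2 to 8, in capitals. The first group is from the cluster on chromosome 12 described further below, and 2 of its members share a seed.
miR-1197-5p: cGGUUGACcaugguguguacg
miR-758-5p: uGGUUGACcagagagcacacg
miR-382-5p: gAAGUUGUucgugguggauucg
miR-134-5p: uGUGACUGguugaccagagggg
miR-494-3p: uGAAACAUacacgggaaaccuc
miR-495-3p: aAACAAACauggugcacuucuu
miR-543-3p: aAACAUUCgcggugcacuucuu
miR-381-3p: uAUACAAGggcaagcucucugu

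The second group is from well-known microRNA genes elsewhere. The let-7 pair has 1 seed and lies under 1 peak of chromosome 13, and miR-23a, miR-27a and miR-24 lie under 1 peak of chromosome 8.
let-7a-5p: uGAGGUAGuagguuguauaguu
let-7f-5p: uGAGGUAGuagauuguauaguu
miR-23a-3p: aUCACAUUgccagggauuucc
miR-27a-3p: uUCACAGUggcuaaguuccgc
miR-24-3p: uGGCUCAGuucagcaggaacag
miR-34a-5p: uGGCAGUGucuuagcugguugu
miR-101a-3p: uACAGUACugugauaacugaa
miR-296-5p: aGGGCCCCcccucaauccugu

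Mirlet7a-1 and Mirlet7f-1 belong to the let-7 family that is processed in full only as stem cells differentiate. Their peak, chr13:48536336-48538726, held 117 tags over 2391 bp with a caller score of 105.28. The score grows with the significance of a peak (−10 × log10 of its p-value) and, like the fold over local background, is the authors' own value. For Mir23a, Mir27a and Mir24-2 the peak chr8:84208262-84209701 was weak, with 57 tags over 1440 bp and a score of 61.22. Mir34a, whose microRNA is a target of p53, had 244 tags over 4258 bp at a fold of 5.67. Mir101a had 256 tags over 4711 bp at a fold of 5.05. Mir296 and Mir298 lay under 1 peak on chromosome 2 with 173 tags over 3553 bp. These peaks thus ranged from just above the caller's lowest score of 50 to well above it.

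Lost intergenic peaks were short and of modest density. Their median length was 1810 bp (quartiles 1504.5 and 2459.5 bp, longest 19294 bp), and 58.9% were shorter than 2 kb. The median peak held 79 tags, or 43.3 tags per kb, 2.23 times the genome-wide mean. Together they covered 7.28 Mb and held 0.942% of the kept control tags. Lost peaks inside genes had a median of 2513 bp and 46.3 tags per kb. The kept intergenic peaks were longer and denser than the lost ones, with medians of 2603 bp and 48.7 tags per kb, and their median score was 165.79 against 90.23. Length enters the rule itself, since a longer peak has more base pairs to share. Scores below 60 were held by 15.0% of lost and 4.19% of kept intergenic peaks.

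**Figure D1:**
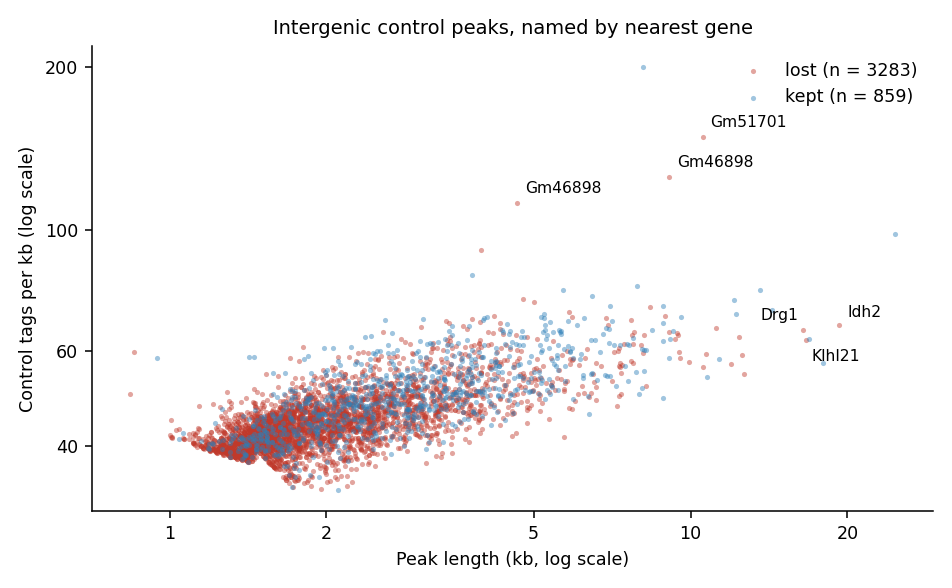
Length (kb, log scale) and tags per kb in control (log scale) of each intergenic control peak on chromosomes 1 to 19, lost (red, n = 3283) or kept (blue, n = 859). Most lost peaks lie near 1.8 kb and 43 tags per kb, and a few named by their nearest gene stand apart in length (Idh2, Klhl21, Drg1) or in density (Gm51701, Gm46898).

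Loss was less common between genes than inside them. Of all control peaks on these chromosomes 93.5% shared no base pair with a knockdown peak, and 95.7% of those inside genes. The intergenic share was lower, 79.3% (78.0 to 80.5). At an FDR of 1% or less, which leaves 588 of the 3039 knockdown peaks and 142 kept intergenic peaks, both shares rose, to 99.3% (99.2 to 99.4) inside genes and 96.6% (96.0 to 97.1) between them. At the edge of the rule, the lost peak closest to a knockdown peak was 1 bp away from it and the kept peak with the least overlap shared 21 bp. Such cases were few. Only 3 lost peaks were within 100 bp of a knockdown peak, 71 (2.16%) within 1 kb, and the median lost peak was 136652 bp away.

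The lost peaks were denser near gene ends than elsewhere between genes. The midpoint of the median lost peak was 7089 bp from the nearest gene end, with quartiles of 1613 and 19200 bp. Within 1 kb lay 19.6% (18.3 to 21.0) and within 5 kb 42.6% (40.9 to 44.3), where 4.77% and 19.4% of the sequence between genes lies. The distances depend on the annotation: with protein-coding genes only the median was 16125 bp, and when peaks that reach into a gene were left out 28.0% lay within 5 kb. A further 33.7% lay at 5 to 20 kb, 14.7% at 20 to 50 kb and 8.99% beyond 50 kb. Kept intergenic peaks lay farther out, with a median of 11891 bp and 5.47% (4.05 to 7.21) within 1 kb. The binomial intervals of the lost and kept shares within 1 kb do not overlap.

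The share of intergenic peaks that were lost was therefore not the same at all distances. Within 1 kb of a gene end 93.2% (91.1 to 94.96) were lost, close to the 95.7% of peaks inside genes. The lost peaks of this class had a median length of 2099.5 bp, so most of them also reached into the gene. The lost share was 81.5% (78.9 to 84.0) at 1 to 5 kb, 76.5% (74.2 to 78.7) at 5 to 20 kb and 69.8% (66.3 to 73.2) at 20 to 50 kb. Beyond 50 kb it was 76.2% (71.7 to 80.4), an interval that overlaps those of the 2 classes before it. At an FDR of 1% or less, 99.4% (98.5 to 99.8) were lost within 1 kb and 94.9% (93.0 to 96.5) at 20 to 50 kb. The difference was also seen within classes of density, although each class is broad and peak length was not held constant. With the intergenic control peaks split into 3 equal classes of tags per kb, the lost share within 5 kb of a gene against beyond 20 kb was 93.4% and 84.4% in the sparsest class. In the middle class it was 90.7% and 78.0%, and in the densest 76.6% (72.9 to 80.0) and 46.9% (41.0 to 52.8).

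**Figure D2:**
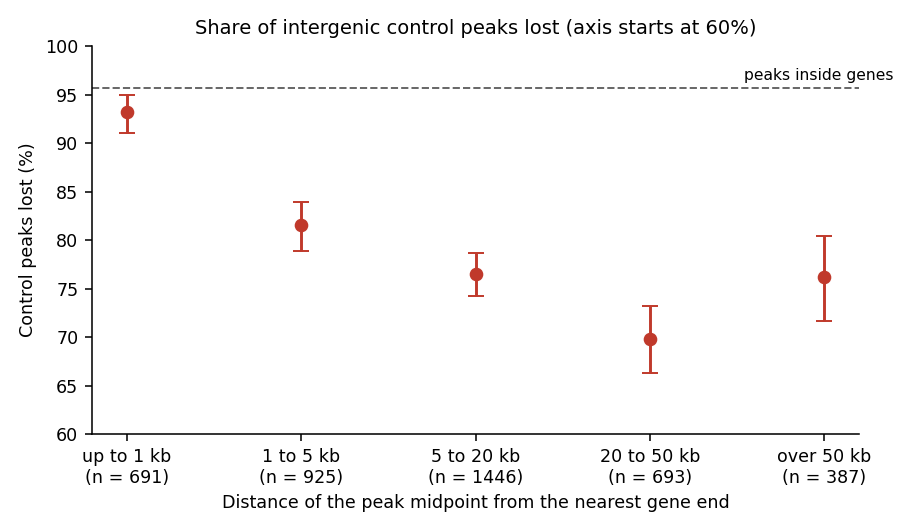
Percent of intergenic control peaks that shared no base pair with a knockdown peak, by distance of the midpoint from the nearest gene end, with exact 95% binomial intervals; the y axis starts at 60%. The share is 93.2% within 1 kb, close to the dashed line at 95.7% for control peaks inside genes, and lowest, 69.8%, at 20 to 50 kb. Most of the lost peaks within 1 kb also reach into the gene.

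The gene end next to a lost peak was mostly a 3′ end. Strand was known from the RefSeq sequence tables for the nearest gene of 1989 lost peaks, and 1336 of these, 67.2% (65.1 to 69.2), lay on the 3′ side. Within 1 kb the share was 92.1% (89.3 to 94.3), or 440 of 478 peaks. It was 67.6% (63.3 to 71.8) at 1 to 5 kb and 56.6% (52.6 to 60.5) at 5 to 20 kb. At 20 to 50 kb the share, 52.3% (46.1 to 58.4), could not be told from an even split. Kept intergenic peaks lay on the 3′ side in 57.6% (52.9 to 62.2) of 455 cases, and they lay farther out. Within 1 kb their share was 74.1% (53.7 to 88.9) of 27 peaks. It was 58.6% (47.6 to 69.1) at 1 to 5 kb, 55.7% at 5 to 20 kb and 51.8% at 20 to 50 kb. Beyond 1 kb the lost and kept intervals overlap in each distance class. Near marked genes, meaning genes that hold the midpoint of a control peak, the contrast was wider: within 5 kb, 85.0% (81.7 to 87.9) of lost and 44.4% (29.6 to 60.003) of kept peaks were on the 3′ side. Put the other way, 95.9% (93.7 to 97.5) of control peaks within 5 kb of the 3′ end of a marked gene were lost, and 76.6% (67.5 to 84.3) of those within 5 kb of its 5′ end. At an FDR of 1% or less these shares were 98.9% (97.6 to 99.7) and 97.1% (91.9 to 99.4), with overlapping intervals. At genes that were not marked the intervals of the 2 sides overlapped, with 85.8% (81.7 to 89.2) and 86.4% (79.3 to 91.7) lost.

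Lost peaks covered 5.57% of the intergenic sequence in the first 500 bp past the 3′ end of marked genes and 6.36% in the next 500 bp. The covered share fell to 3.96% at 2 to 3 kb, 2.36% at 4 to 5 kb and 1.79% at 10 to 15 kb. Upstream of the 5′ end of marked genes it was 0.319% in the first 500 bp and 1.17% at 1 to 2 kb, and it lay between 1.04% and 1.63% from there to 50 kb. Past the 3′ end of genes that were not marked it was 1.77% in the first 500 bp, and before their 5′ end 0.494%. These shares leave out control peaks that cross a gene end with their midpoint inside the gene, so they understate the total.

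**Figure D3:**
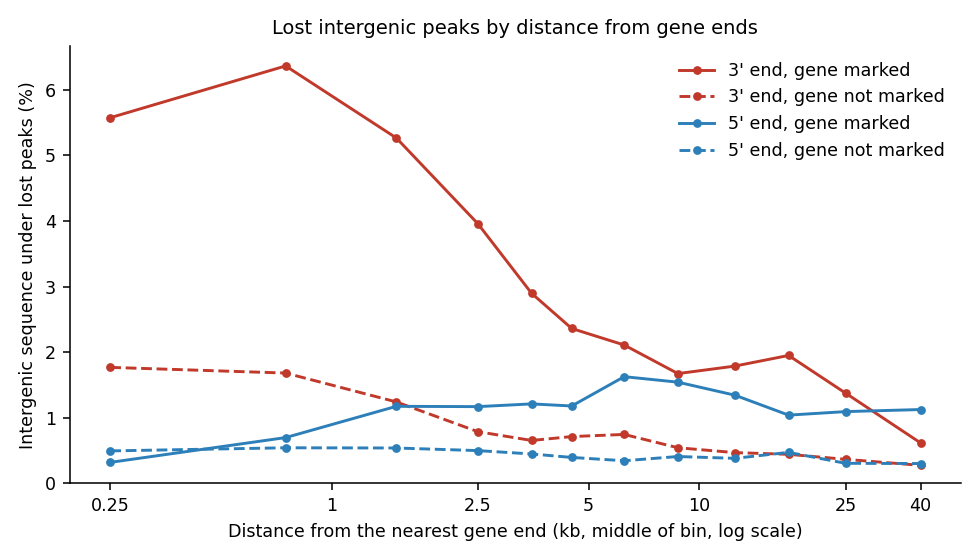
Percent of intergenic base pairs under lost peaks (y) against distance from the nearest gene end (x, kb, log scale, middle of each bin), for 3′ ends (red) and 5′ ends (blue) of marked (solid) and unmarked (dashed) genes. The line for 3′ ends of marked genes reaches 6.36% at 0.5 to 1 kb and falls below the line for their 5′ ends only at 30 to 50 kb, while the line for their 5′ ends starts at 0.319%.

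Seen from the genes, 7.17% (6.53 to 7.86) of the 5994 3′ ends of marked protein-coding genes that face intergenic sequence had a lost peak within 5 kb, against 1.13% (0.875 to 1.43) of their 5944 5′ ends. For unmarked protein-coding genes the shares were 2.72% (2.37 to 3.10) and 0.655% (0.488 to 0.861). For the coverage of the gene body only control peaks with their midpoint in a gene were counted, so that a lost peak could not cover its own gene. The 3′ share was 2.76% (2.41 to 3.15) for genes without such coverage, 4.72% (3.898 to 5.66) for genes covered up to 25% and 9.54% (8.04 to 11.2) for genes covered over 50 to 75%. At 75 to 100% it was lower again, 6.07% (4.66 to 7.74). At 5′ ends the share was 0.644% (0.475 to 0.853) without coverage, highest at 1.55% (1.09 to 2.14) in the class up to 25%, and 0.665% at 75 to 100%.

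**Figure D4:**
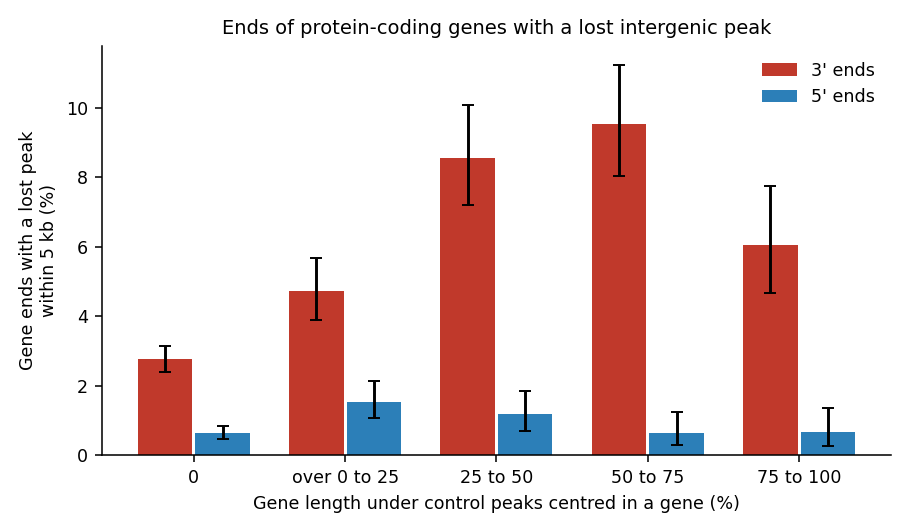
Percent of 3′ ends (red) and 5′ ends (blue) of protein-coding genes with a lost peak within 5 kb on the side away from the gene, by percent of gene length under control peaks that have their midpoint in a gene; bars start at 0 and error bars are exact 95% binomial intervals. The 3′ bars reach 9.54% in genes covered over 50 to 75%, and the 5′ bars stay at 1.55% or less.

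The arrangement of the neighbouring genes was also compared. Among stretches of up to 10 kb between 2 marked genes, a lost peak was present in 13.5% (10.4 to 17.0) of 438 convergent ones, where both genes end, and in 6.72% (4.998 to 8.81) of 714 tandem ones. It was present in 0.674% (0.139 to 1.96) of 445 divergent ones, where both genes start, but these had a median length of 174 bp and can hardly hold a peak midpoint. In stretches over 10 kb, whose median lengths were alike, the shares were 23.4% (16.4 to 31.7), 19.4% (15.7 to 23.7) and 15.9% (10.5 to 22.7). Those intervals overlap.

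Whether the nearest gene was itself marked depended on the distance. It was marked for 37.8% (36.1 to 39.5) of all lost peaks, where 21.6% of all genes and 43.3% of protein-coding genes on these chromosomes were marked. Within 5 kb of the gene the share was 49.4% (46.7 to 52.0), and beyond 50 kb it was 12.2% (8.70 to 16.5). For kept intergenic peaks the shares were 28.9% (23.0 to 35.4) and 14.1% (7.74 to 23.0). Beyond 50 kb the lost and kept intervals overlap. A fall was also seen for the sequence between genes. A marked gene was nearest to 6922138 of 30951059 bp within 500 bp of a gene end. It was nearest to 11559112 of 149788046 bp at 30000 to 50000 bp. A protein-coding gene was nearest to 53.5% of lost peaks, a lncRNA gene to 22.9% and a pseudogene to 18.1%. Of the peaks next to a protein-coding gene 60.8% (58.5 to 63.1) had a marked one beside them, and of those next to a pseudogene 4.38%. The rule for marking uses peak midpoints, so a gene can be covered by the lost peak itself and still count as unmarked. When at least 1 bp under another control peak was enough, 40.7% qualified. For 44.5% (42.8 to 46.2) of lost peaks, neither gene beside the intergenic stretch was marked. Peaks next to unmarked genes had a median score of 86.72 against 97.08 next to marked genes, and a median length of 1771 bp against 1875 bp.

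A part of the lost peaks reached back into genes. Of the 3283, 664 (20.2%, 18.9 to 21.6) overlapped a gene by at least 1 bp although their midpoint lay outside, compared with 8.15% (6.41 to 10.2) of the kept ones. A peak inside a gene lay within 1 kb of 10.1% (9.13 to 11.2) of lost and 1.75% (0.981 to 2.86) of kept peaks. The 4 longest lost peaks were of this kind. The longest of all, chr7:80084626-80103919, ran for 19294 bp across the 2093 bp gap between the converging genes Zfp710 and Idh2, which encodes mitochondrial isocitrate dehydrogenase. It held 1293 tags at a fold of 7.14, and 17201 of its base pairs lay in the 2 genes. Klhl21, an adaptor gene of a ubiquitin ligase, had a lost peak of 16627 bp with 1045 tags at its 3′ end. Drg1, a GTPase gene, had one of 16461 bp with 1078 tags, and Prpf38a, a splicing factor gene, one of 12660 bp with 688 tags. No base pair of these 4 genes was under a knockdown peak. Control peaks covered 51.0% (Idh2) to 87.5% (Drg1) of their length, but the lost peak itself is counted in these values. Klhl21, at 83.9%, held no control peak midpoint.

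The highest caller scores were also found close to gene ends. The top one, 1286.85, belonged to chr11:78152196-78163391 with 740 tags, which spanned the 1083 bp between Fam222b and Traf4. Its midpoint was 454 bp past the 3′ end of Fam222b, and 10113 of its 11196 bp lay in genes. Next came chr9:57538502-57547971, with its midpoint 48 bp past the 3′ end of Fam219b and 8399 of its 9470 bp in genes. That peak had 608 tags and a score of 1058.33. It was followed by chr7:45117139-45124023 with 474 tags, which covered the whole hairpin gene of Mir150. Pnpla1 (score 1035.99) and Birc5 (983.3) completed the first 5. Birc5 encodes survivin, an inhibitor of apoptosis that acts at mitosis, and its peak began in the gene, held 527 tags over 7696 bp and had its midpoint 59 bp past the 3′ end. All 5 were far above the median score of 90.23 of lost peaks.

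Setd2 had a lost peak at its own 3′ end. The peak chr9:110617263-110620254 was 2992 bp long with 150 tags at a fold of 5.07, and its midpoint was 125 bp past the end of the gene, which was covered over 40.1% in control and had no base pair under a knockdown peak. No other of the 8 H3K36 methyltransferase genes listed was the nearest gene of a lost peak. Among all genes 5.82% were the nearest gene of at least 1 lost peak, and 7.33% of protein-coding genes.

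Of 31 naive pluripotency genes found, 5 (16.1%) were the nearest gene of a lost peak, and 3 had one within 5 kb. These 3 were 11.1% of the 27 marked genes of the list, against 6.90% of marked protein-coding genes. Zfp42, which encodes the stem cell marker Rex1, had 5 lost peaks. The one 879 bp past its 3′ end had 120 tags over 2293 bp, the next, at 4183 bp, 110 tags over 2532 bp, and the other 3 lay 49937 to 60481 bp before its 5′ end with 53 to 87 tags. Dppa4, another pluripotency-associated gene, had 1 lost peak of 4969 bp with 251 tags, 529 bp from its end. Tet2 and Tfcp2l1, which encode a methylcytosine dioxygenase and a naive-state transcription factor, each had 2, the nearest 11181 and 36698 bp away.

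Cytosolic ribosomal protein genes had lost peaks close by in 15 of 80 cases (18.8%), all of them within 5 kb, where 4.57% of all protein-coding genes had one that close. More of these genes were marked, 68.75% against 43.3% of protein-coding genes. Of the 55 marked ribosomal protein genes, 7 (12.7%) had a lost peak within 5 kb, against 6.90% of marked protein-coding genes. Rpl7 had a lost peak of 4330 bp with 263 tags at 164 bp from its end, and Rps16 one of 3835 bp with 229 tags at 21 bp. These genes are short, and the lost peaks themselves reached far into them. With the lost peak counted, Rpl7 was 63.8% and Rps16 94.4% under control peaks although neither held a peak midpoint. Of 25 genes for elongation and 3′ end processing only Leo1, a subunit of the PAF complex, was nearest to a lost peak, which had 79 tags 631 bp past its 3′ end. Zfp genes were nearest in 33 of 391 cases (8.44%), and 71.1% of them were marked. Of the marked Zfp genes 6.83% had a lost peak within 5 kb, close to the 6.90% of marked protein-coding genes. Histone genes, of which 1.23% were marked, were nearest in 1 of 81, H2ax, with 125 tags over 2830 bp.

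The microRNA cluster of chromosome 12 held the second of the runs of lost peaks, where a run joins lost peaks at most 5 kb apart and runs are ranked by the base pairs under their peaks. It belongs to the imprinted Dlk1-Dio3 region, whose maternal copy gives rise to long non-coding transcripts, Rian and Mirg among them, that carry microRNAs and snoRNAs. From 109710643 to 109735729 there were 4 lost peaks covering 20979 bp with 1028 tags, at folds of 3.98 to 5.43. Their tag counts were 211, 323, 367 and 127, and their densities were close to each other at 46.4 to 50.2 tags per kb. The hairpins under them include those of the first 8 sequences printed above. A second run, chosen after its values were seen, lay before it from 109678762 to 109698903 beside the snoRNA genes Gm22981 and Gm22205 and the pseudogene Gm25224, with 4 lost peaks and 653 tags. Over the 56968 bp of both runs 21 of the 29 hairpins that are in the RefSeq sequence table lay wholly under a lost peak and 25 under some control peak, and there was no knockdown peak. The 37 mature microRNAs of these 21 hairpins had 36 different seeds, the shared one being that of miR-1197-5p and miR-758-5p.

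The first run by base pairs under peaks lay far from genes. On chromosome 10, from 83423920 to 83458538, 4 lost peaks next to the pseudogene Gm8270 covered 30395 of 34619 bp. They held 621, 739, 133 and 333 tags over 8919, 12569, 3033 and 5874 bp, and their midpoints were 22472 to 49694 bp from a gene end. Beside them, towards D10Wsu102e, lay 3 kept peaks of 24671, 8421 and 13618 bp with 98.5, 65.4 and 77.6 tags per kb in control, against 43.9 to 69.6 in the lost run. Lost and kept peaks thus stood side by side in 1 intergenic stretch.

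The third run by this ranking, on chromosome 5 from 33474707 to 33500510, had 6 lost peaks covering 19563 bp, 41362 to 64125 bp before the 5′ end of Nkx1-1, a homeobox gene with no base pair under a control peak. Their tags ranged from 59 to 260 and their folds from 3.08 to 5.79, and 2 more lost peaks followed within 81155 bp of the gene. Such runs were the exception. Of 2967 runs 2700 were single peaks, 267 had 2 or more and 1 had 5 or more. Of the 295 lost peaks beyond 50 kb, 103 (34.9%) had a score of 100 or more, against 55.7% of those within 1 kb. The 5 lost peaks farthest from any gene, at 403279 to 616146 bp, had 49 to 107 tags and scores of 51.89 to 123.67. Of these the farthest, next to Gm9630, was above the medians of lost peaks in tags, score and length, and the other 4 were below them.

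**Figure D5:**
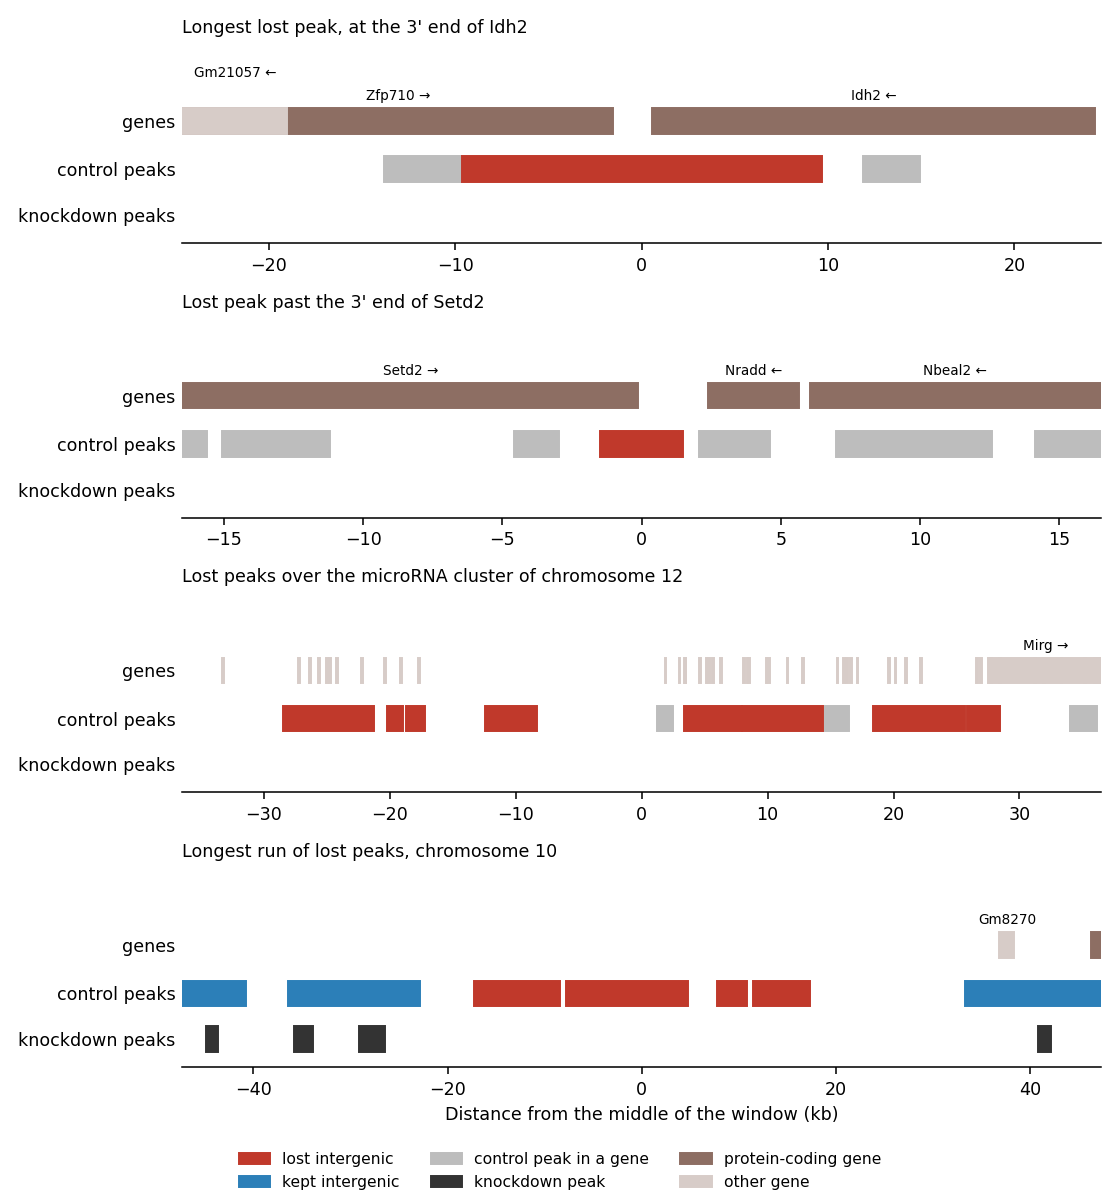
Genes (arrows give the direction of transcription where known), control peaks and knockdown peaks in 4 windows, drawn by distance in kb from the middle of each window. The lost peaks (red) bridge the facing 3′ ends of Zfp710 and Idh2 and cross the 3′ end of Setd2. They cover most of the microRNA hairpins of chromosome 12, and on chromosome 10 lie between kept peaks (blue) that overlap knockdown peaks.

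The densest lost peaks differed among themselves in fold. The top one, chr9:123927249-123937806 next to the lncRNA gene Gm51701, held 149 tags per kb, and 2 on chromosome 4 beside Gm46898 held 126 and 112. Their folds over local background were 3.51, 4.69 and 3.40, where lost peaks had a median of 4.16 and quartiles of 3.74 and 4.71. The fourth, on chromosome 4 beside Vmn2r-ps16, held 92.0 tags per kb at a fold of 3.24. The fifth, at Eef1e1, held 74.7 tags per kb at a fold of 6.21. High tag density thus went with a fold within or below the quartiles in the first 3 peaks, but not at Eef1e1. Why this was so was not tested.

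Lost peaks rarely covered promoters. Of 31396 RefSeq promoter windows of 300 bp, 35 (0.111%) from 32 genes lay wholly under a lost peak, and 516 (1.64%) under any control peak. The rule itself keeps the first share low. Each window reaches past the start into its gene, while a lost peak has its midpoint outside all genes. Windows of the same gene can overlap and were counted separately, as for Ghrl and Gm39646. In the 250 bases before the start, the 35 windows had a median of 3 CpG dinucleotides, where all windows had 6. The letters GGGCGG, searched on both strands, were found in 1 of the 35 (2.86%) and in 33.0% of all windows, CCAAT in 16 (45.7%) and 33.7%, and TATAAA in 3 (8.57%) and 12.4%. The 516 windows under any control peak also had fewer CpG, a median of 4, and GGGCGG in 12.02%, CCAAT in 29.7% and TATAAA in 9.88%. Among the 32 genes was Mirg of the chromosome 12 cluster. The 2 protein-coding genes with the highest-scoring peak over a promoter window were Gdpd3, a glycerophosphodiester phosphodiesterase family gene beside Mapk3, and Ghrl, which encodes the hormone ghrelin. Their peaks held 383 tags over 6333 bp and 276 tags over 5273 bp. The 250 bases before the start are given 5′ to 3′ on the strand of the gene with CpG in capitals, 6 in Gdpd3 (chr7:126766164-126766413, plus strand) and 1 in Ghrl (chr6:113719455-113719704, minus strand), from RefSeq (GRCm38.p6).
Gdpd3: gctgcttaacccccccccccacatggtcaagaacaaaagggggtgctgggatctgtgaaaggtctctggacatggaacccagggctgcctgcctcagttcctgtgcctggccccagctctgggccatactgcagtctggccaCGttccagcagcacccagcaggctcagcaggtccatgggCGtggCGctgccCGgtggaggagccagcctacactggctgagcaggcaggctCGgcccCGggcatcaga
Ghrl: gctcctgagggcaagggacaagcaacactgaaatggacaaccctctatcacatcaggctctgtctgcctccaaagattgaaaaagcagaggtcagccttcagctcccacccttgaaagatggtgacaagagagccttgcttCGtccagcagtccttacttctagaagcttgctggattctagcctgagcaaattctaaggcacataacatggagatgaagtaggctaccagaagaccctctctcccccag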

How the data were processed

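H3K36me3 ChIP-seq and input libraries of mouse embryonic stem cells were used, 2 replicates each of control and Setd2 knockdown. Reads were handled with Bowtie 1.1.2 and FastQC 0.11.5 on mm10, per the submitters' processing notes. Peaks were called with MACS 1.4.2 on merged replicates against merged inputs at a p cutoff of 1e-05, with 1 tag kept per position, per the file headers. For each peak the authors deposited a count of tags, a score, a fold (ratio) over local background, and an FDR in percent. The deposited BED files held the subset with an FDR of 5% or less and were not used.

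Genes came from the RefSeq table of GRCm38.p6 (47042 on chromosomes 1 to 19), with strand from the RefSeq promoter and microRNA tables for 56.8% of them. Each intergenic midpoint was assigned to the nearer of the genes on either side. Overlap was 1 bp. Counts and intervals were computed with Python 3.11.15, pandas 2.3.3 and scipy 1.17.1, and the interval code was tested on simulated data. No test between conditions was possible on merged lists. Region members, lists and rankings were chosen with earlier results of these data known. By the naming rule, the text draws on the 5 lost peaks that were highest in score, length, density and distance, the 3 runs with the most base pairs under peaks, the genes with the most lost base pairs, and list members beside lost peaks. The microRNAs, promoters and the second chromosome 12 run were chosen after their values were seen. The gene coverage that leaves out intergenic peaks, and the shares inside genes and by distance at stricter thresholds, were also added after the data were seen.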

Additional observations from a re-analysis of the deposited data

How the results depend on the processing

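Merged peak lists hold no replicates, so leaving out a replicate could not be done. No paired analysis was possible because the peak lists merge replicates 1 and 2. The count of 3283 stayed within 1.5 times in every setting but a score of 100 or more in both lists, which left 1773. The lost share moved from 79.3% to 96.6% with an FDR of 1% or less, 86.1% with a score of 100 or more, 77.5% with no knockdown peak within 1000 bp, 86.6% with a mutual overlap of 50%, 76.8% with no bp in a gene, and 77.2% with only control peaks of score 60 or more, a setting added after seeing the data. The median distance of 7089 bp became 7742 bp at the FDR of 1%, 10453 bp with no bp in a gene, 16125 bp with protein-coding genes only and 14449 bp without Gm and Rik genes. In the same order of settings the share within 5 kb went from 42.6% to 39.4%, 28.0%, 29.3% and 30.3%, and it was 19.6% within 1 kb and 58.9% within 10 kb. The share with a marked nearest gene went from 37.8% to 35.7%, 33.9%, 58.8% and 54.3%, and was 33.4% with a score of 100 or more. It was 49.98% where 1 bp under a control peak marked a gene, 40.3% where 10% of the gene did, and 40.7% where the lost peak itself was left out. The median length of 1810 bp became 1919.5 bp (FDR of 1%), 2618 bp (score of 100), 1874.5 bp (mutual overlap), 1732 bp (no bp in a gene) and 1949 bp (score of 60). Distances and marking thus depend on which genes are annotated.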

Other observations

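Lost intergenic peaks were found on all 19 autosomes. Per Mb of sequence between genes they were fewest on chromosome 14 (1.51) and most numerous on chromosome 10 (3.85), chromosome 11 (3.78) and chromosome 9 (3.51). The lost share of intergenic peaks ranged from 70.5% (64.1 to 76.4) on chromosome 6 to 85.6% (77.0 to 91.9) on chromosome 19. On chromosome 7 the lost peaks lay closest to genes, at a median of 3112 bp, and on chromosome 10 farthest, at 10097 bp.

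The gene with the most lost peaks was Gm22546, a snoRNA gene of chromosome 10 with 9 of them at 20233 to 156488 bp. They held 59 to 107 tags each at folds of 3.06 to 5.37, and 3 kept peaks stood among them with 71, 161 and 116 tags. Among protein-coding genes with no base pair under a control peak, Car8, a carbonic anhydrase-related gene, had 6 lost peaks over 15500 bp at 25710 to 122769 bp, and Tnfaip8l3, a gene for a lipid transfer protein, had 5 over 11934 bp at 10357 to 40449 bp. Of 2737 genes nearest to a lost peak 2348 had 1 and 389 had 2 or more.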
